A study of Spodoptera frugiperda with 3 samples.

Results

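Hemolymph, the blood of insects, carries lipid and stored amino acids between tissues, and 5 genes of the fall armyworm (FAW, Spodoptera frugiperda) that code for such carrier and storage proteins were followed in Verson's glands. Verson's glands are paired dermal glands of the caterpillar epidermis that discharge at molts. The genes were chosen by identifier out of the 20644 genes listed in each of 3 gene tables, and all 5 were found. They are apolipophorin-3 (LOC118274630), apolipophorins-like (LOC118280748) and apolipoprotein D-like (LOC118276696), called lipid carriers below, and basic juvenile hormone-suppressible protein 2 (LOC118272014) and basic juvenile hormone-suppressible protein 1-like (LOC118276436), called storage proteins. The glands came from last instar larvae (L6), prepupae and pupae of FAW-SID1, a transgenic strain that carries green fluorescence protein and SID1 of Caenorhabditis elegans, driven by the hr5-IE1 and IE1 promoters. All 3 groups therefore share both transgenes, and none is a wild-type control. The study reports that the glands die by programmed cell death and are gone within a day of pupation. The age of the sampled pupae is not given in the sources used here, so how far their glands had degenerated is unknown. Each stage is 1 library made from isolated total RNA, with no further treatment in the labels. The number of animals or glands behind it is not given in the sources used here. A stage thus has no replicate, so stages were not tested against each other, no p-value is given, and differences have no replicate check.

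Lepidopteran lipid travels in a particle called lipophorin. The apolipophorins gene codes for a precursor that is cut into the structural proteins of that particle, while apolipophorin-3 is a small soluble protein that binds to the particle when it is loaded with more diacylglycerol, as in flight, and in wax moths it also takes part in immune responses. Apolipoprotein D belongs to the lipocalins, secreted proteins that hold small hydrophobic molecules in a barrel. Basic juvenile hormone-suppressible proteins are hexamerins named in the cabbage looper, where juvenile hormone lowers their transcripts. Hexamerins are made by the larval fat body, released into hemolymph, and taken back up before pupation as a store of amino acids. The fat body is the main known source of lipophorin proteins and hexamerins.

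Values are TPM, an abundance of transcripts in which exon reads are taken per base of exon and each library is then brought to an equal total. Total exon reads ranged from 15208331 to 21366500 per library. Reads on rRNA genes made up 87.8% (L6), 0.307% (prepupa) and 37.1% (pupa) of exon reads. The study does not say how rRNA was handled when the libraries were made. A difference in library preparation could not be told apart from stage. Each value is also given as rescaled TPM, which leaves out rRNA and mitochondrial genes and multiplies the others by 3.64, 1.003 and 1.22. Outside rRNA there were 2610753, 15161624 and 11716156 exon reads, so an equal rescaled level is measured least precisely in L6. The lipid carriers nevertheless had their fewest reads in the prepupa. Apolipophorin-3, for example, had 648 there against 5622 in L6. The 35 mitochondrial genes other than rRNA had 0 exon reads, so leaving them out does not change these totals. Intervals are 95% intervals that cover counting error only. No gene is known here to mark Verson's gland cells alone, so the labelled tissue could not be checked by a defining marker.

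All 5 genes peaked in the pupa, as deposited and after rescaling. Of the 12112 genes that reached a TPM of 1 in some library, the highest stage was the pupa for 31.3%, the prepupa for 61.3% and L6 for 7.41%. Over the 12095 genes that remained after rescaling, the shares were 27.7%, 49.8% and 22.5%. The 3 lipid carriers were lowest in the prepupa, an order found in 10.7% of all genes as deposited and 24.9% after rescaling. The 2 storage proteins increased in the order L6, prepupa, pupa, as 24.5% of all genes did (13.7% after rescaling). Together the 5 genes took 0.327%, 0.0325% and 1.25% of the rescaled TPM of L6, prepupa and pupa. In bulk RNA, fewer cells of a type and less RNA per cell cannot be told apart.

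**Figure D1:**
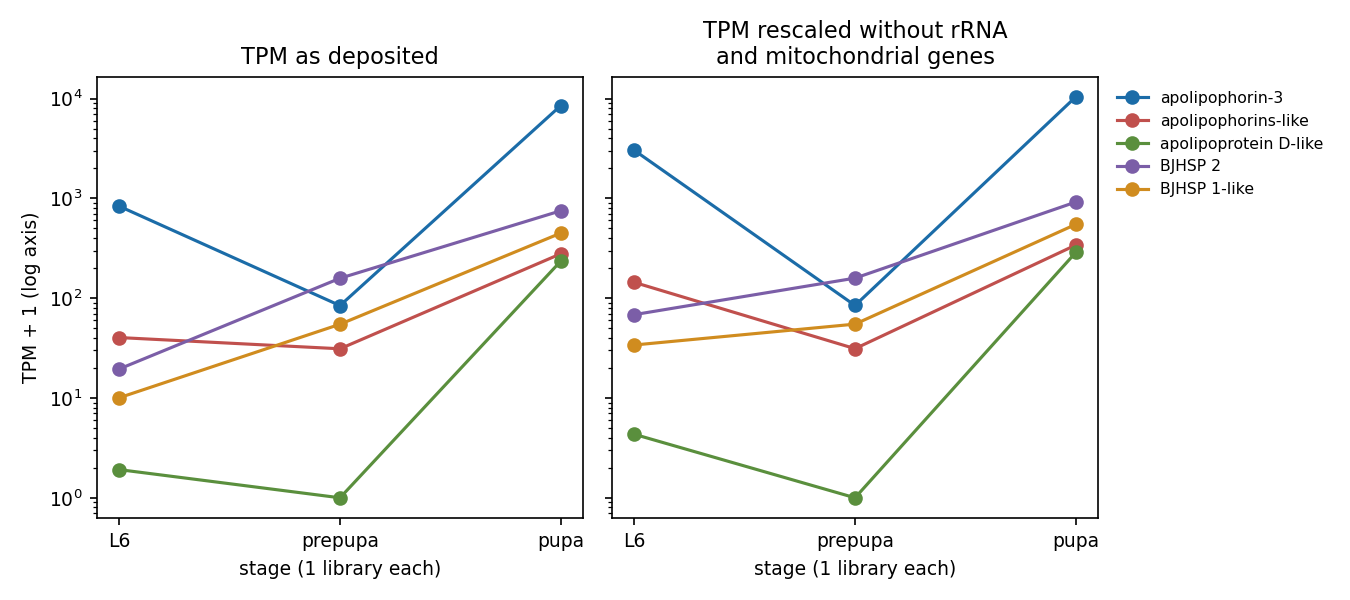
TPM + 1 on a log axis for the 5 genes in the 3 libraries, as deposited on the left and rescaled without rRNA and mitochondrial genes on the right, with 1 point per library and lines joining the points of 1 gene (BJHSP, basic juvenile hormone-suppressible protein). The 3 lipid carriers dip in the prepupa and the 2 storage proteins climb through the stages, and apolipophorin-3 reaches 8487 TPM in the pupa while apolipoprotein D-like has no exon read in the prepupa.

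Apolipophorin-3 was the most abundant of the 5 genes in L6 and the pupa. Its TPM was 833 in L6 (5622 exon reads), 83.3 in the prepupa (648 reads) and 8487 in the pupa (97224 reads). Rescaled, the values were 3028, 83.5 and 10387. The pupa thus lay above L6 and the prepupa far below it on both scales. By TPM the gene ranked 70 (L6), 1175 (prepupa) and 8 (pupa) among all genes outside rRNA and the mitochondrial genome. It is a compact gene of 4 exons with 737 bases of exon, at 10762734 to 10763985 on the minus strand of the sequence named NC_049729.1 in the tables. All of its exon reads mapped uniquely.

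Against L6, the prepupa value of apolipophorin-3 was 10.001 times lower as deposited (counting interval 9.22 to 10.9) and 36.3 times lower after rescaling (33.4 to 39.4). The pupa value was 102 times that of the prepupa (94.4 to 110) as deposited and 124 times (115 to 135) after rescaling. Against L6 the pupa was 10.2 times higher (9.92 to 10.5) as deposited but 3.43 times higher (3.34 to 3.52) after rescaling. The size of the difference between the pupa and L6 thus depends on how the rRNA of the L6 library is treated, while its direction does not.

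Apolipophorins-like, the precursor of the lipophorin particle, followed the same order at lower levels. Its TPM was 39.3 in L6 (3747 exon reads), 30.1 in the prepupa (3309 reads) and 277 in the pupa (44842 reads), or 143, 30.2 and 339 rescaled. As deposited, L6 and the prepupa were close, with the prepupa 1.31 times lower (1.25 to 1.37), and rescaling widened this to 4.73 times (4.52 to 4.96). This is the only one of the stage differences among the 5 genes whose direction turned under another scaling. On RPKM (exon reads per exon length and per mapped reads) and on CPM (a gene's share of all exon reads, rRNA included), the prepupa lay above L6, with log2 ratios of 0.075 and 0.31 against -0.37 on TPM.

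The pupa exceeded the prepupa 9.21-fold for apolipophorins-like (8.89 to 9.54) as deposited and 11.2-fold (10.8 to 11.6) rescaled, and exceeded L6 by 7.05 times (6.82 to 7.29) and 2.37 times (2.30 to 2.46). The gene has 57 exons with 10406 bases of exon over 29300 bases, at 6760285 to 6789584 on the minus strand of NC_049739.1, and all of its exon reads mapped uniquely. Its reads therefore spread over the longest transcript of the 5 genes.

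The ratio of apolipophorin-3 transcripts to those of apolipophorins-like differed between the libraries. Within a library this ratio of TPM does not depend on the scaling. Apolipophorin-3 stood at 21.2 (L6), 2.77 (prepupa) and 30.6 (pupa) times apolipophorins-like. The dip of the prepupa was therefore deeper for the exchangeable apolipophorin-3 than for the structural precursor.

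Apolipoprotein D-like, a lipocalin gene, had nearly all of its reads in the pupa. Its exon reads numbered 9 (L6), 0 (prepupa) and 3901 (pupa). The L6 library gave a TPM of 0.915 (0.418 to 1.74), the prepupa 0 and the pupa 234 (226 to 241), or 3.33, 0 and 286 rescaled. A count of 0 in the prepupa allows a TPM of up to 0.264, taking 3 reads as the floor of a library, so a low level in that library was not detectable at this depth.

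Set against that floor of 3 reads, apolipoprotein D-like was at least 883-fold higher in the pupa as deposited, and at least 1078-fold higher after rescaling. Against L6 it was 255 times higher (134 to 559) as deposited and 86.0 times (45.2 to 188) rescaled. Of the gene's reads in the pupa, 4.74% fell in introns. The single read counted in the prepupa was an intron read. The gene lies at 17292413 to 17296011 on the plus strand of NC_049711.1, with 5 exons and 1074 bases of exon, and all of its exon reads were unique.

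Basic juvenile hormone-suppressible protein 2, a hexamerin, had a TPM of 18.5 in L6 (411 exon reads), 157 in the prepupa (4020 reads) and 749 in the pupa (28193 reads). Rescaled, these were 67.4, 158 and 917, in the same order. The prepupa was 8.48 times above L6 (7.66 to 9.41) as deposited and 2.34 times (2.11 to 2.60) rescaled. The pupa was 4.76 times above the prepupa (4.61 to 4.93) and 40.4 times above L6 (36.7 to 44.7), or 5.82 and 13.6 times rescaled. The gene lies at 7479922 to 7483076 on the plus strand of NC_049725.1 and has 5 exons with 2420 bases of exon.

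Basic juvenile hormone-suppressible protein 1-like, the other hexamerin, had 9.06 TPM in L6 (197 exon reads), 53.8 in the prepupa (1348 reads) and 447 in the pupa (16500 reads). The rescaled values were 33.0, 53.9 and 547.5. The prepupa was 5.94 times above L6 (5.11 to 6.93) as deposited and 1.64 times (1.41 to 1.91) rescaled, and the pupa was 8.32 times above the prepupa (7.87 to 8.80). Per exon length, the first-named storage protein stood above this one in each library, by 2.05, 2.92 and 1.68 times with all exon reads and by 26.8, 14.9 and 65.6 times with uniquely mapped reads only. The gene has 5 exons with 2373 bases of exon at 12293411 to 12296680 on the minus strand of NC_049731.1. It lies inside the span of LOC118276434, a gene on the plus strand, and whether strand was used in counting is not given in the sources used here. The exon reads of LOC118276434 numbered 266, 619 and 107, so its order of stages was another one.

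The storage protein values need a limit that the lipid carriers do not. Of the exon reads of basic juvenile hormone-suppressible protein 1-like, only 7.61% (L6), 19.6% (prepupa) and 2.54% (pupa) mapped uniquely. In the pupa 16081 of the 16500 reads were shared with another place in the genome. Among protein-coding genes of 4 or more exons and at least 100 reads, 3.11% had under 10% unique reads in the pupa. For basic juvenile hormone-suppressible protein 2 the unique share was at least 99.4% in each library.

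Reads that cross an exon-exon boundary, called boundary reads here, match the splicing of the annotated gene. They made up 63.9%, 73.5% and 61.4% of the exon reads of apolipophorin-3 over the stages in turn, and 71.4%, 75.4% and 64.0% of those of apolipophorins-like, and 55.4% of those of apolipoprotein D-like in the pupa. For basic juvenile hormone-suppressible protein 2 the shares were 10.7% (8.07 to 14.1%), 18.0% (16.9 to 19.3%) and 5.18% (4.93 to 5.44%). For basic juvenile hormone-suppressible protein 1-like they were 7.61% (4.67 to 12.2%), 17.7% (15.7 to 19.8%) and 2.35% (2.13 to 2.59%). The median of genes with 5 exons and 2000 to 2600 bases of exon was 24.2% (L6), 24.8% (prepupa) and 23.3% (pupa), with lower quartiles of 14.6%, 18.3% and 9.24%. Both storage protein genes thus lay under the lower quartile of genes of their shape in L6 and the pupa, while in the prepupa their intervals held that quartile.

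**Figure D2:**
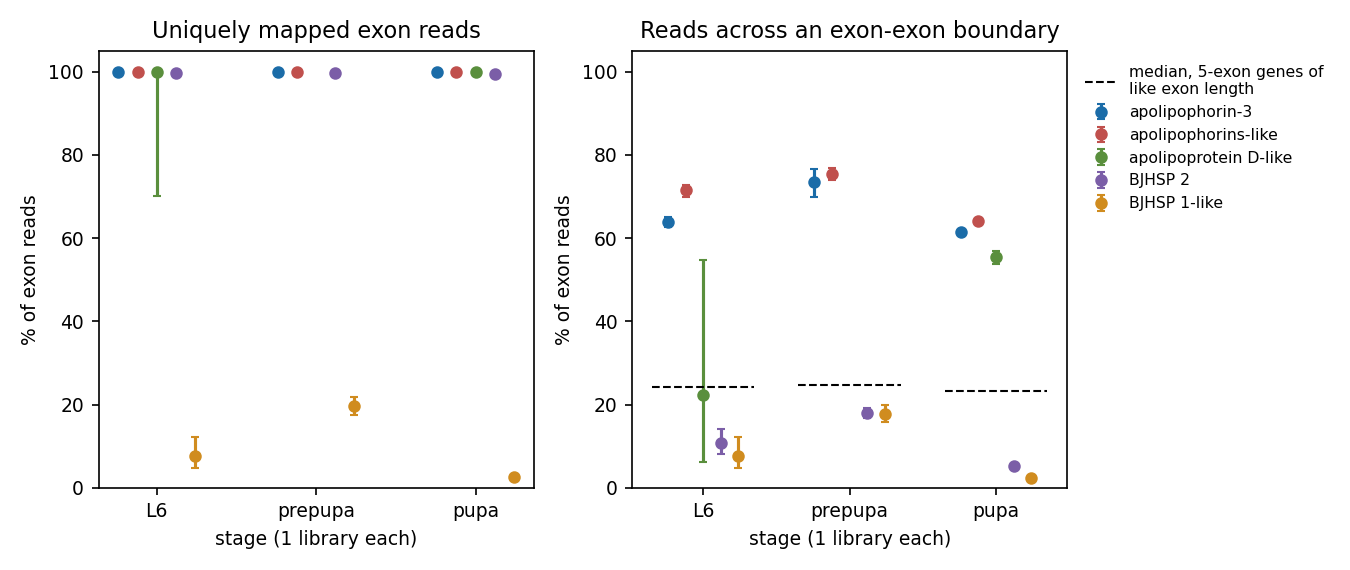
Percent of the exon reads of each of the 5 genes that mapped uniquely (left) and that crossed an exon-exon boundary (right) in each library, with 95% Wilson intervals as bars, and dashed lines at the median of genes with 5 exons and 2000 to 2600 bases of exon. Apolipoprotein D-like has no point in the prepupa, where it has no exon read. The storage proteins have the lowest boundary shares in the pupa, at 5.18% and 2.35%, and only basic juvenile hormone-suppressible protein 1-like has few unique reads.

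Counted by boundary reads alone, the storage proteins differed less between the pupa and the prepupa and more between the prepupa and L6. As CPM over exon reads outside rRNA and mitochondrial genes, the boundary reads of basic juvenile hormone-suppressible protein 2 came to 16.9 (L6), 47.8 (prepupa) and 125 (pupa). The pupa was then 2.61 times above the prepupa, against 9.08 times with all exon reads on the same scale. For basic juvenile hormone-suppressible protein 1-like the boundary reads were at 5.75, 15.7 and 33.0 CPM, and the pupa was 2.10 times above the prepupa, against 15.8 times with all exon reads and 2.05 times with unique reads. The prepupa was 2.84 and 2.73 times above L6 for the 2 genes with boundary reads, against 1.68 and 1.18 times with all exon reads. The order L6, prepupa, pupa held for both genes with all 3 kinds of read.

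For apolipophorin-3 and apolipophorins-like the boundary reads gave nearly the same picture as all reads. As CPM over exon reads outside rRNA and mitochondrial genes, the pupa was 162 times above the prepupa for apolipophorin-3 with boundary reads. With all exon reads on that scale it was 194 times above. For apolipophorins-like the figures were 14.9 and 17.5 times. Where the shared reads of basic juvenile hormone-suppressible protein 1-like come from was not tested. Basic juvenile hormone-suppressible protein 2 had only 1 (L6), 12 (prepupa) and 156 (pupa) shared reads, and the cause of its low boundary shares was not tested either.

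A stage was called higher where its TPM + 1 was at least 10 times that of another. Between the pupa and L6, 4 of the 5 genes were called higher in the pupa, beside 7.16% of all genes, namely apolipophorin-3, apolipoprotein D-like and both storage proteins. After rescaling 3 were called, beside 4.37%, without apolipophorin-3. None of the 5 was called lower, beside 1.12% of all genes (3.49% rescaled). With unique reads 2 were called, apolipoprotein D-like and basic juvenile hormone-suppressible protein 2, beside 4.42% of all genes. With boundary reads 1 was called, apolipoprotein D-like, beside 2.87%. Between the pupa and the prepupa, 2 were called higher in the pupa, apolipophorin-3 and apolipoprotein D-like, beside 3.8% of all genes, and apolipophorins-like joined them after rescaling, beside 4.66%. None was called lower, beside 9.87% (8.73% rescaled).

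In the prepupa against L6, 0 of the 5 were called higher, beside 12.7% of all genes (5.47% rescaled), and 0 were called lower, beside 2.23%. Apolipophorin-3 stood just short of the threshold there and was called lower after rescaling, beside 5.25%. In that comparison the median gene had a log2 ratio of 1.59 as deposited and 0.49 rescaled. Relative to this median, apolipophorin-3 lay at -4.90 and -5.66, with 2.23% and 2.12% of all genes below it. The storage proteins lay at 1.42 and 0.85 above the median as deposited, and at 0.72 and 0.20 rescaled.

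From the prepupa to the pupa the median gene stood at -0.80 as deposited and -0.61 rescaled, that is, lower in the pupa. The 5 genes went the other way. Their log2 ratios lay between 3.05 and 8.68 above the median as deposited and between 3.14 and 8.77 rescaled. As deposited, between 91.6% and 99.8% of all genes had lower ratios. These positions use all exon reads, most of them shared for basic juvenile hormone-suppressible protein 1-like. Its log2 ratio was 3.03 as deposited, but 0.39 with unique reads and 1.03 with boundary reads. For basic juvenile hormone-suppressible protein 2 the values were 2.25, 2.55 and 1.36. For the pupa and L6 the medians were 0.68 and -0.21, and the 5 genes lay between 2.11 and 6.26 above them as deposited and between 1.45 and 6.26 rescaled.

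**Figure D3:**
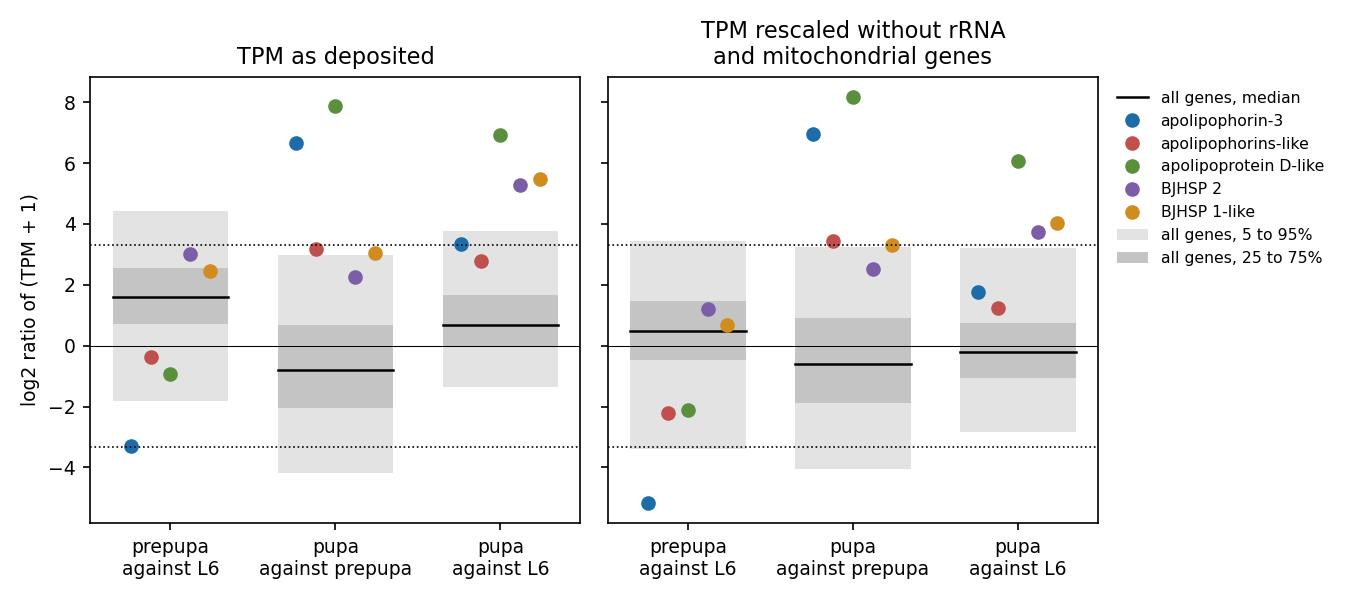
Log2 ratio of TPM + 1 between stages for the 5 genes (points), over the spread of all tested genes (light bars from the 5th to the 95th percentile, dark bars from the 25th to the 75th, black line at the median), as deposited on the left and rescaled on the right. Dotted lines mark 10 times higher and lower. Between the pupa and the prepupa all 5 points lie above the dark bar, and in the prepupa against L6 apolipophorin-3 is the lowest, at -3.31 as deposited and -5.16 rescaled.

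The surroundings of the 5 genes differ. The nearest genes on each side of apolipophorin-3, LOC118275172 and LOC118275094, had pupa values of 44.2 and 0.495 TPM, and the former was highest in the prepupa, at 326. The neighbours of apolipophorins-like, LOC118280712 and the long noncoding RNA gene LOC118280683, were at or under a TPM of 0.593 in all 3 libraries. Those of apolipoprotein D-like, LOC118279404 and LOC118275156, were highest in the prepupa, at 18.9 and 23.6. Around basic juvenile hormone-suppressible protein 1-like, the nearest genes outside its span were LOC118276439 and LOC118276033, with pupa values of 0.0458 and 3.42.

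Basic juvenile hormone-suppressible protein 2 sits among genes of the same shape, a pattern noticed after the values had been seen. Within 300 kb on either side there are 40 other protein-coding genes. Of these, 7 have exactly 5 exons and 2000 to 2600 bases of exon, against 0.882% of all protein-coding genes. Around the other storage protein 0 of 37 genes do. The sources used here give no protein name for the 7 genes, so they are given by identifier.

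The 7 genes divide by stage. LOC118272269, 8602 bases away, had 3.93, 120 and 292 TPM (14.3, 120 and 357 rescaled), and LOC118272270 had 7.91, 114 and 1076 (28.8, 114 and 1317 rescaled), the same order as basic juvenile hormone-suppressible protein 2. LOC118272273 went the other way, with 1018 (L6), 0.460 (prepupa) and 29.6 TPM (pupa). LOC118272271 had 869, 1.17 and 35.4, and LOC118271700 had 538, 0.892 and 22.5. The other 2, LOC118271708 and LOC118272259, were under a TPM of 1 in every library, as was LOC118271707, the nearest gene on the other side. Some 5-exon genes of this region were thus abundant in L6 and nearly without reads in the prepupa, while others were lowest in L6.

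**Figure D4:**
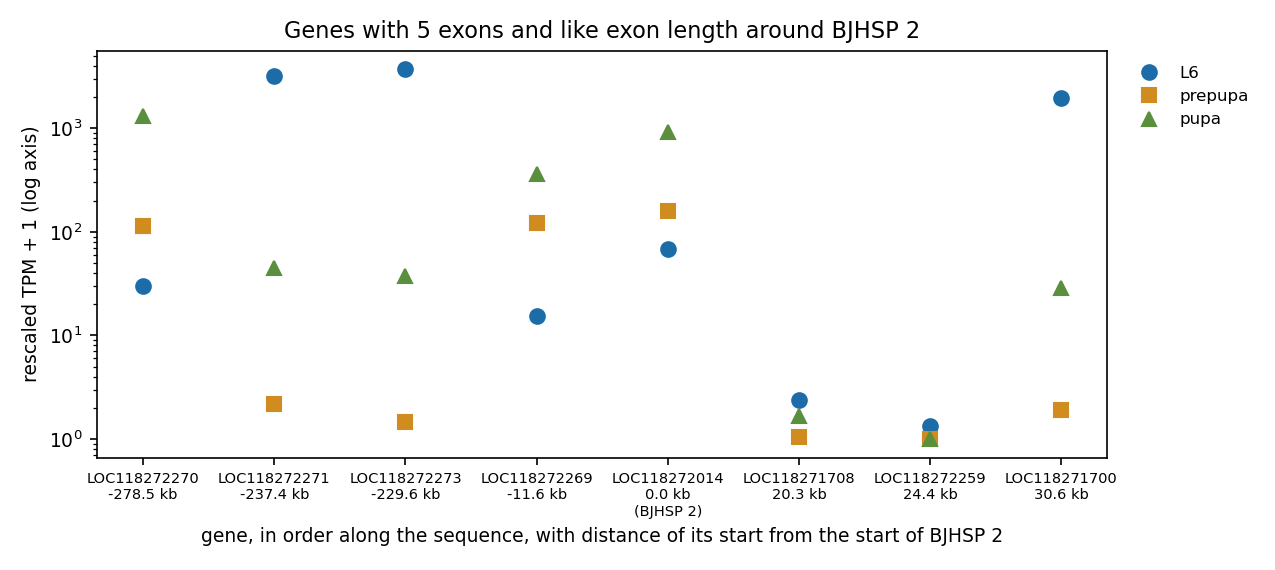
Rescaled TPM + 1 on a log axis, by stage (1 library each), for the 8 genes with 5 exons and 2000 to 2600 bases of exon within 300 kb of basic juvenile hormone-suppressible protein 2 (BJHSP 2), that gene included, in their order along the sequence with distances between starts in kb. LOC118272271, LOC118272273 and LOC118271700 are highest in L6, at 3161, 3702 and 1955 rescaled TPM, while LOC118272270, LOC118272269 and BJHSP 2 are highest in the pupa.

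Some of these genes also share reads with other places. In the pupa, 80.4% of the exon reads of LOC118272270 and 68.2% of those of LOC118272269 were unique, and 4.34% and 6.58% crossed an exon-exon boundary. These boundary shares lay under the lower quartile given above, as did those of both storage proteins. Of the 3 genes highest in L6, LOC118271700, LOC118272271 and LOC118272273, the unique shares in L6 were 50.7%, 63.8% and 64.7%, so their L6 values rest on shared reads in part. Their boundary shares in L6 were 24.2%, 14.02% and 13.7%, the latter pair also under the lower quartile of that library.

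Other genes of carriers, lipid handling and juvenile hormone were found by protein name in 8 lists, which gave 25 genes beside the 5. Names were at hand for 2296 of 20644 genes. They came from the study's lists of genes higher or lower in these glands than in other tissues, and of hemolymph protein genes. The 25 are thus preselected, in part on these same libraries, so the shares of all genes beside them are not a like comparison. Of the 25, 13 peaked in pupae, 8 in prepupae and 4 in L6, or 12, 8 and 5 after rescaling. In the prepupa against L6, 6 (24%) were called higher and 2 (8%) lower, beside 12.7% and 2.23% of all genes. Rescaled, 3 (12%) were called in each direction, beside 5.47% and 5.25%. From the prepupa to the pupa, 4 (16%) were called higher and 2 (8%) lower, beside 3.8% and 9.87% of all genes. Their median log2 ratio was 0.41, beside -0.80 over all genes. Against L6, 3 (12%) were called higher in the pupa and 0 lower, beside 7.16% and 1.12%, with a median of 1.66 beside 0.68, but after rescaling 0 were called higher and 1 (4%) lower, beside 4.37% and 3.49%. The list of other hexamerins found 0 named genes beyond the 2 storage proteins.

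Of the 5 other lipocalins, 4 were highest in the pupa on both scales. Another apolipoprotein D-like gene, LOC118274673, had 9.07 (L6), 50.2 (prepupa) and 113 TPM (pupa), and LOC118274700, of the same name, had 4.26, 24.02 and 51.8. Neither had the gap in the prepupa seen in LOC118276696. Insecticyanin-A-like (LOC118275531), a relative of the blue bilin-binding protein of hornworms, had 12.1, 7.33 and 106, with its lowest value in the prepupa. An insecticyanin-B-like gene (LOC118275434) had 11.99, 0.225 and 6.05 and was the 1 lipocalin highest in L6.

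Juvenile hormone-binding protein-like (LOC118276399), a hemolymph carrier of the hormone, had 231 (L6), 19.1 (prepupa) and 1829 TPM (pupa), or 841, 19.2 and 2239 rescaled. Apolipophorin-3 stood at 3.60, 4.36 and 4.64 times its TPM in the 3 libraries, while apolipophorin-3 itself ranged over 102 times. By distance between profiles of log2(rescaled TPM + 1) it was also the nearest to apolipophorin-3 of 1891 other genes with a protein name, at 3.55, followed by profilin, an actin-binding protein (LOC118273211, 3.57), and a lysozyme-like gene (LOC118265509, 3.65). With 3 libraries such a likeness is a description only, and these distances were larger than those found for the other 4 genes.

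The other 6 genes of the juvenile hormone list had another order. Krueppel homolog 1-like (LOC118273446), a transcription factor that responds to the hormone, had 0.196, 18.6 and 2.43 TPM, and protein takeout-like (LOC118275183) had 0.503, 19.3 and 2.45. A pair of genes for juvenile hormone esterase, which breaks the hormone down, reached 109 (LOC118275676) and 94.1 (LOC118275675) in the prepupa, with 3 exon reads each in L6 and 0 in the pupa. Only 14.7% and 38.2% of the reads of this pair were unique. Other esterase-like genes had reads in the pupa. LOC118275677 had 0.979, 5.03 and 17.0 TPM, highest in the pupa, and LOC118277113 had 0.256, 15.3 and 1.21, highest in the prepupa. Their unique shares were 6.78% and 28.0%. In all, 5 of the 7 genes of the list were highest in the prepupa and 2 in the pupa, on both scales.

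Of the genes listed by name under uptake and transfer, cubilin-like (LOC118263154) had 57.7 (L6), 17.8 (prepupa) and 187 TPM (pupa), the order of the lipid carriers. Cubilin is an endocytic receptor of mammals, and whether this gene codes for such a receptor was not tested. Cubilin-like was the third nearest profile to apolipophorins-like, at a distance of 1.07, after a lysozyme-like gene (LOC118271940, 0.880) and transcription factor Adf-1-like (LOC118265589, 1.003). NPC intracellular cholesterol transporter 2-like (LOC118275433), a sterol-binding protein, had 13.2, 16.6 and 180, or 47.96, 16.6 and 221 rescaled, which turns the order of L6 and the prepupa. The low-density lipoprotein receptor-like gene (LOC118276760) had 6.44, 29.1 and 15.8, and the receptor-related protein 2-like gene (LOC118272398) had 0.568, 13.5 and 2.36, both highest in the prepupa on both scales. Cathepsin L1-like (LOC118276442), a lysosomal protease, was also highest in the prepupa, at 778.

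Both ferritin genes, which code for iron storage proteins that insects also secrete, were highest in the pupa. The ferritin subunit-like gene (LOC118278734) had 125, 192 and 1179 TPM, and the lower subunit-like gene (LOC118278733) had 27.7, 157 and 277. After rescaling, the prepupa became the lowest stage of the former, at 192 against 454 in L6. Of the lipid droplet proteins, lipid storage droplets surface-binding protein 2-like (LOC118269580) had 20.7, 59.8 and 67.5 (75.3, 59.98 and 82.7 rescaled, with the prepupa lowest), and protein 1-like (LOC118269804) had 5.32, 2.59 and 19.3. A pancreatic triacylglycerol lipase-like gene (LOC118261988) had 5.51, 4.52 and 6.11, but 20.1, 4.54 and 7.48 rescaled, so that its highest stage became L6. The yolk protein gene vitellogenin-like (LOC118280767) stayed at or under 0.0987 in every library, and the microvitellogenin-like genes reached at most 2.51 as deposited.

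**Figure D5:**
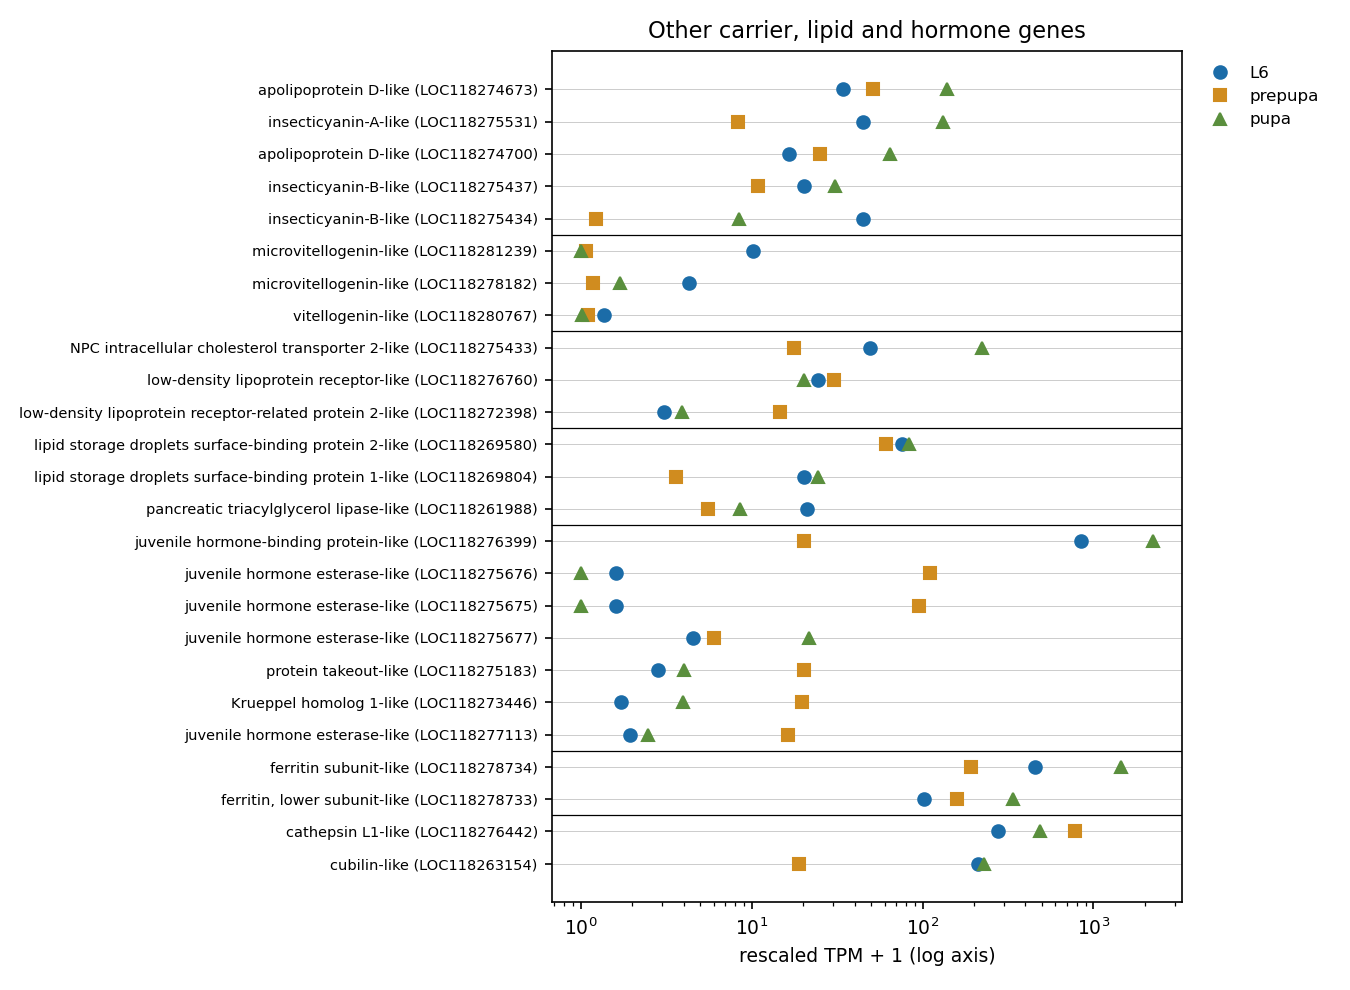
Rescaled TPM + 1 on a log axis for the 25 other genes found by protein name, with 1 symbol per library and lines between the lists (from the top, lipocalins, yolk proteins, receptors and lipid transfer, lipid droplets and lipases, juvenile hormone, iron carriers, storage protein uptake). Juvenile hormone-binding protein-like stands highest in the pupa, at 2239, and 5 of the 7 juvenile hormone genes are highest in the prepupa.

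The nearest profiles to the remaining 3 genes belong to other kinds of protein. For apolipoprotein D-like they were a pupal cuticle protein 36-like gene (LOC118265846, at a distance of 0.682), allergen Tha p 1-like (LOC118265696, 0.766) and another pupal cuticle protein 36-like gene (LOC118266013, 0.884). All 3 lay between 154 and 176 TPM in the pupa and at or under 1.48 in the other libraries. For basic juvenile hormone-suppressible protein 2 the nearest were mitochondrial fission 1 protein-like (1.35), clavesin-1-like (1.35) and ras-related protein Rap-2c-like (1.42). For basic juvenile hormone-suppressible protein 1-like they were protamine-2-like (0.682), peroxiredoxin-6-like (1.008) and zinc transporter ZIP6-like (1.13).

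Genes listed as markers of other tissues were present and moved with stage. They were found by the same protein names, so some may be listed because the study called them higher in glands than in other tissues. Markers without such a name are missing, so the sums cannot measure how much other tissue was present. The study also reports cuticular protein and phenoloxidase genes as highly expressed in the glands themselves. Genes of these kinds, in the cuticle and hemocyte lists, therefore do not mark other tissue alone. The 7 genes found for the fat body, the usual source of these proteins, summed to 40.7 (L6), 196 (prepupa) and 158 TPM (pupa), or 148, 197 and 193 rescaled, while the 5 genes summed to 3274, 325 and 12477 rescaled. Of the 7, 5 were highest in the pupa on both scales, vitellogenin-like was near 0, and a pair of fatty acid synthase-like genes (LOC118274609, LOC118274634) had 23.9 and 10.6 TPM in the pupa and at most 0.0972 elsewhere. The third fatty acid synthase-like gene, LOC118272899, went the other way, with 11.5, 125 and 0.884 TPM. Without it the list summed to 29.2, 71.6 and 157 TPM, or 106, 71.8 and 192 rescaled, so this gene decided that the prepupa had the highest sum. Of the 7, 3 are also in the lists above. No gene was found by name for transferrin or the adipokinetic hormone receptor. The 3 hemocyte genes summed to 84.2, 30.6 and 15.2 TPM (306, 30.7 and 18.7 rescaled), but they did not share 1 order. Phenoloxidase subunits 2-like and 1-like had 60.3 and 22.4 TPM in L6 and 1.54 and 1.81 in the prepupa. Protein draper-like had 1.57, 27.3 and 13.0, highest in the prepupa. For the 11 muscle genes the sums were 1989, 321 and 217 (7234, 321 and 266), and for the 30 cuticle genes 3230, 813 and 14047 (11746, 815 and 17192.5). The 2 midgut genes came to 1.53, 361 and 0.419 (5.56, 362 and 0.512), and the 7 neuron genes to 47.1, 425 and 169 (171, 426 and 207). The 1 silk gland gene had 0, 0 and 9.92 (0, 0 and 12.1). Of the muscle genes, 8 were highest in L6 and 3 in the prepupa. There, 1 titin-like gene (LOC118269398, 49.9% unique reads) held 209 TPM of the muscle sum. Likewise LOC118270925 (19.4% unique) held 237 of the neuron sum. The trachea list found 0 genes. The part of fat body or other tissue RNA in the values of the 5 genes was not tested.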

How the data were processed

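Reads of the BGISEQ-500 were mapped by the authors with CLC Genomics Workbench 9.5.9 to a genome of the species. The deposited counts are raw reads per gene (exon, intron, exon-exon, total and unique). The deposited TPM scales exon reads per exon length over all listed genes, and the deposited RPKM scales them per exon length and mapped reads. For the build and for multiply mapped reads, the handling is not given in the sources used here. Protein names came from the study's supplementary tables, held in part, by gene or accession without version (413 of 596 hemolymph accessions matched), because the RefSeq table of AGI-APGP_CSIRO_Sfru_2.0 holds none, unlike the planned use of RefSeq names. No sequence was available to print.

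Members and lists were chosen with earlier results of these data known. Named genes are the 5, the top 3 of each list by mean TPM (a few more are named after their values were seen), the 3 nearest profiles and the neighbours. An acetyl-transferring kinase and an extended synaptotagmin that met a list's letters were left out after their names were seen. Ratios used a pseudocount of 1 and a call at 10 times, fold intervals are exact conditional binomial, shares Wilson, and counts exact Poisson, except that a count of 0 takes a floor of 3 reads. Alternatives were rescaled TPM, CPM, RPKM, TMM (edgeR 4.0.16), unique reads, pseudocounts 0.1 and 5, ratios 4 and 20 and no filter. Boundary reads, and alternatives for the lists, were chosen after seeing the data, as were the neighbourhood of 5-exon genes, its 300 kb limit and the fat body sum without 1 gene. Python 3.11.15, SciPy 1.17.1 and matplotlib 3.10.9 were used.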

Additional observations from a re-analysis of the deposited data

How the results depend on the processing

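No paired analysis was possible because each stage is 1 library and the labels carry no replicate numbers, and no library could be left out for the same reason. Of 120 log2 ratios of the 5 genes under 8 alternatives, 118 kept the direction of the deposited TPM. The 2 that did not are those of apolipophorins-like between the prepupa and L6, at 0.31 on CPM and 0.075 on RPKM. Pseudocounts 0.1 and 5, with 15 ratios each, cannot change a direction, so their part of the 118 is no check. The number of genes called in the prepupa against L6, 0 on TPM, became 1 lower on rescaled TPM, TMM, unique reads and boundary reads (apolipophorin-3) and with a pseudocount of 0.1 (apolipoprotein D-like), 1 higher on CPM and RPKM (basic juvenile hormone-suppressible protein 2), and 3 at a ratio of 4. In the pupa against the prepupa the 2 calls became 4 on RPKM and 5 with TMM or at a ratio of 4. In the pupa against L6 the 4 calls became 2 with unique reads and 1 with boundary reads. The cause of these shifts was not tested. All other alternatives stayed within 1.5 times of the count on TPM. The listed genes highest in the pupa numbered 13 on TPM and between 11 and 14 otherwise. Depth limits apolipoprotein D-like most, with 9 exon reads in L6 and 0 in the prepupa, and boundary reads of the storage proteins in L6, with 44 and 15.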
